A study of Nitraria sibirica with 9 samples.

Results

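Among 31628 leaf transcript clusters of the salt-tolerant shrub Nitraria sibirica, 200 were picked out because they stood apart at 400 mM NaCl while their mean at 100 mM stayed close to that at 0 mM. A cluster is a group of assembled transcript sequences that the deposited files treat as 1 feature. They were selected on measured values, the FPKM as deposited, a fragment count corrected for cluster length and library size. How the length entered is not given in the sources used here. Clusters with a mean FPKM over the 9 libraries of 500 or more were left out. The log2 ratio of the mean at 100 mM to the mean at 0 mM had to lie within 0.3 of 0, and all 3 libraries at 400 mM had to lie above, or all below, the 6 others. These conditions were met by 463 clusters in the raised and 456 in the lowered direction, and the 100 with the largest log2 ratio of 400 mM to 0 mM were taken from each. All 3 salt levels and all 9 libraries thus entered the choice, so the levels below are a description of what was selected and carry no test.

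The study compared leaves of greenhouse seedlings at 0, 100 and 400 mM NaCl after 3 days, with 3 libraries of total RNA per level and no further genotype or agent named. NaCl was raised by 50 mM per day, and the start was timed so that the target levels were reached together. Plants at 400 mM therefore spent more days in rising salt than plants at 100 mM, and the level of salt cannot be told apart from the time spent in it. The labels number the replicates without saying whether they are separate plants, so spreads between them may be technical. In whole-leaf RNA, fewer cells of a type and less RNA per cell cannot be told apart.

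Salt acts on leaves in a pair of ways: dissolved salt lowers the water potential around the root, and sodium and chloride accumulate in the tissue. Halophytes, plants that complete their life cycle in saline soil, hold ions in vacuoles and balance them with compatible solutes in the cytoplasm. A moderate level can be tolerated or even favour their growth, and a high level restricts it, which makes transcripts that differ at the high level alone a class of interest. The files used here do not pair clusters with gene names or protein descriptions. No role can therefore be given to any cluster, the labelled leaf tissue could not be checked against marker genes, and at most 2 raised and 2 lowered clusters are named, with others given by their rank of change.

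Total read counts ran from 16502576 to 23932857 per library, with means over 3 libraries (± SD) of 18195163 ± 1466782 for the 0 mM level, 20109342 ± 2232369 for 100 mM and 22782439 ± 1070807 for 400 mM. Replicate 1 at both salt levels stood nearer to the 0 mM libraries than its fellow replicates. Across the 31628 clusters, which share depth and length effects, the mean correlation of log2(FPKM + 1) with the 0 mM libraries was 0.926 for replicate 1 at 400 mM, beside 0.893 and 0.884 for replicates 2 and 3. At 100 mM it was 0.908 for replicate 1, beside 0.877 and 0.890. Without both of these libraries the median log2 ratio of 400 mM to 0 mM was 1.21 over the raised clusters and -1.21 over the lowered ones, beside 1.13 and -1.15 with all 9 libraries. Without replicate 1 at 100 mM, however, 32 raised and 33 lowered clusters fell outside the limit of 0.3 at 100 mM.

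Over the raised clusters the median level was 3.17 FPKM at 0 mM, 3.43 FPKM at 100 mM and 7.14 FPKM at 400 mM. Their means at 400 mM were between 1.80 and 4.19 times those at 0 mM, with a median of 2.19-fold, and between 1.57 and 4.39 times those at 100 mM, with a median of 2.14-fold. Over the lowered clusters it was 4.48 FPKM at 0 mM, 4.42 FPKM at 100 mM and 1.76 FPKM at 400 mM. Their means at 0 mM were between 1.90 and 9.30 times those at 400 mM, with a median of 2.21-fold, so the far end of the lowered set reached further than that of the raised set. A ratio of at least 2 was seen in 68 of 100 raised and 82 of 100 lowered clusters, where 6.54% of all clusters in the table were at least 2-fold higher and 9.15% at least 2-fold lower. These counts depended on the scaling: in counts scaled by TMM factors, which align the bulk of clusters between libraries, 96 of 96 raised and 44 of 95 lowered clusters with enough counts reached 2-fold, where 9.20% of all such clusters were at least 2-fold higher and 5.79% at least 2-fold lower. Ratios of at least 4 in FPKM were rare, in 2 raised and 4 lowered clusters. A complete separation of the 400 mM libraries was required by the choice, and 2.16% of all clusters had it upward and 2.31% downward whatever their change at 100 mM. Nothing is read from these shares, since the choice fixed both.

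**Figure D1:**
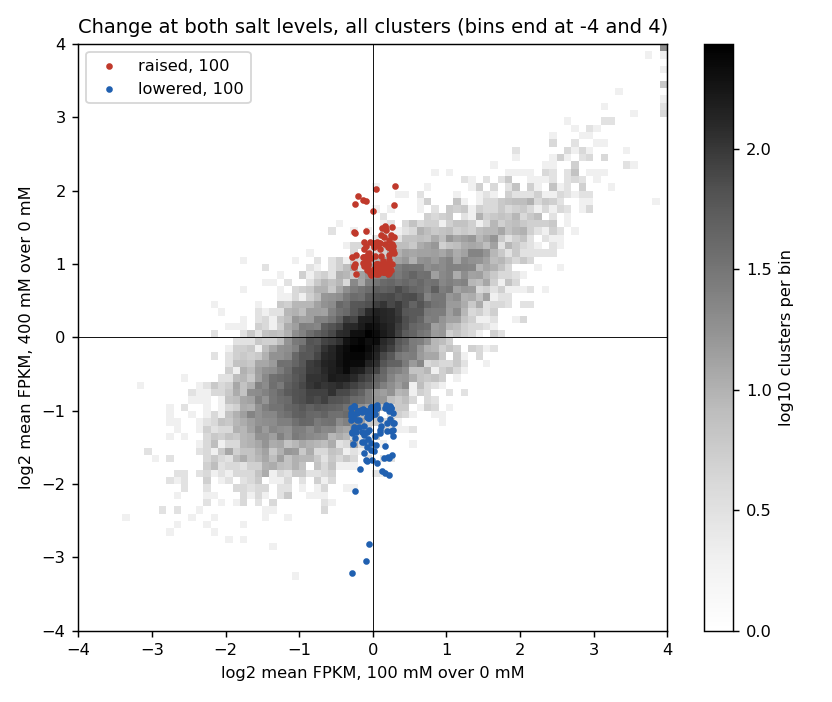
Log2 ratio of mean FPKM at 400 mM over 0 mM (vertical) against 100 mM over 0 mM (horizontal), with grey bins counting all clusters of the table (changes beyond 4 either way are counted in the outermost bins) and points marking the 100 raised (red) and 100 lowered (blue) clusters. The points form a narrow vertical band within 0.3 of 0 on the horizontal axis and lie above and below the dense centre of the grey cloud, which runs along the diagonal. Both axes share the 0 mM libraries.

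The limits of the choice separated close neighbours. The raised cluster of rank 100 had a log2 ratio of 0.850 and the next one, left out, 0.846. In the lowered direction the last cluster taken stood at -0.926 and the next at -0.921. At the limit for 100 mM, the outermost lowered cluster taken had a log2 ratio of -0.299 and the nearest one left out -0.300. With a change at 400 mM as large as that of rank 100 and complete separation, a further 110 raised and 191 lowered clusters were left out for their change at 100 mM alone. The cap of 500 FPKM removed 0 such raised clusters and 1 lowered cluster, with a mean of 7129 FPKM and a log2 ratio of -1.49. Separation could be minimal, as the lowest 400 mM value of 1 raised cluster was only 1.002 times the highest value of the 6 others.

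**Figure D2:**
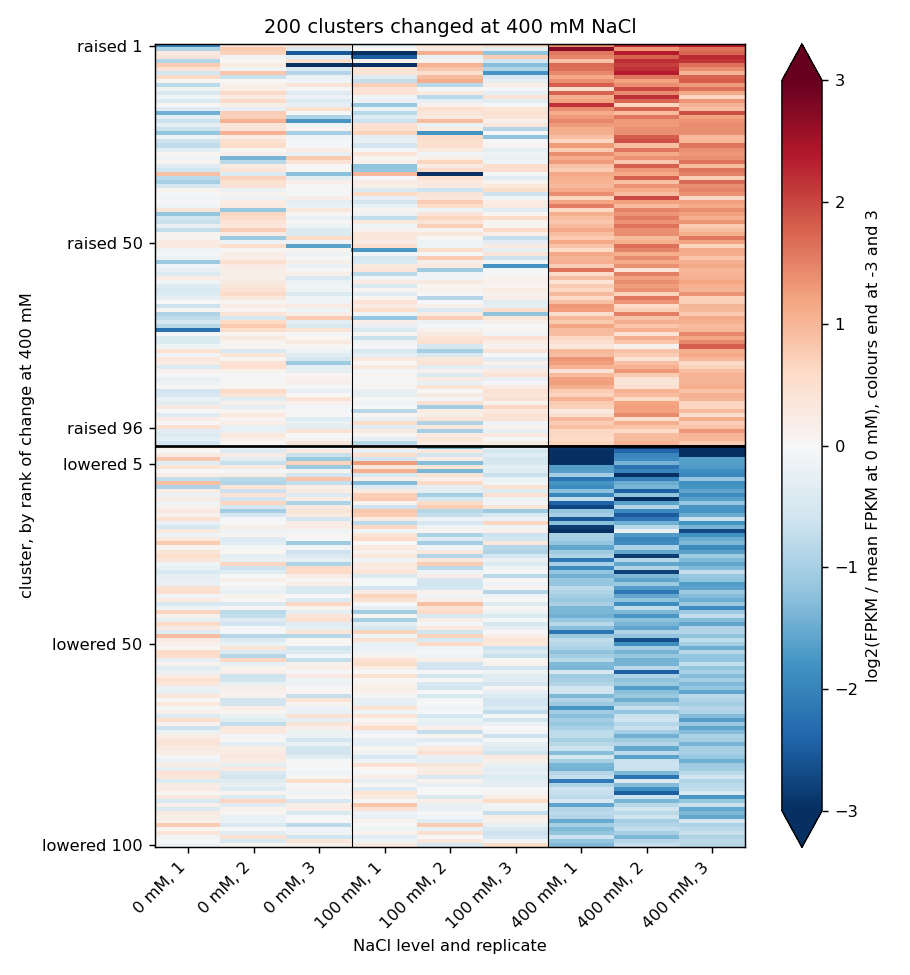
Log2 of FPKM over the cluster's mean at 0 mM in each of the 9 libraries (columns, by NaCl level and replicate) for the 200 clusters (rows, by rank of change at 400 mM within each direction). The 6 columns at 0 and 100 mM are mostly pale with scattered dark cells among the first ranks, while all 400 mM cells have the sign of the selected direction.

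Cluster-23439.67621, 291 bases long, had the largest ratio among the raised clusters. Its levels were 0.75, 3.90 and 4.16 FPKM at 0 mM, 2.35, 3.94 and 4.53 FPKM at 100 mM, and 7.72, 14.0 and 15.2 FPKM at 400 mM. The 400 mM libraries did not overlap the others, and replicate 1 was the lowest at all 3 levels. Its log2 ratio was 2.07, but the level rested on 1, 4 and 4 read counts at 0 mM, 3, 4 and 4 at 100 mM and 9, 15 and 17 at 400 mM. Summed counts per depth gave a ratio of 400 mM to 0 mM of 3.64 with an exact 95% interval of 1.74 to 8.51, which covers counting error only. Here and below, depth is the total read count without TMM factors. The clusters were chosen for this ratio in the same libraries, so the intervals are no test of a change. This cluster thus had the widest counting interval of the raised clusters described here.

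The raised cluster of rank 2, 490 bases long, was at 0.74, 2.40 and 1.06 FPKM at 0 mM, 1.46, 1.70 and 1.17 FPKM at 100 mM, and 9.28, 3.44 and 4.35 FPKM at 400 mM. Here replicate 1 was the highest at 400 mM, the reverse of rank 1. Rank 4 (1091 bases) was at 2.68, 1.90 and 1.60 FPKM at 0 mM, 0.37, 1.77 and 3.48 FPKM at 100 mM, and 5.73, 7.08 and 9.84 FPKM at 400 mM. The lowest of its 400 mM values was 1.65 times the highest of the others. Rank 5 (1833 bases) stayed between 0.35 and 0.91 FPKM in the 6 libraries at 0 and 100 mM, and was at 1.18, 3.00 and 2.84 FPKM at 400 mM.

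Ranks 3 and 6 had a similar course across the 9 libraries. Rank 3 (2518 bases) was at 6.76, 9.09 and 0.94 FPKM at 0 mM, 0.46, 11.7 and 2.47 FPKM at 100 mM, and 16.7, 28.7 and 18.7 FPKM at 400 mM. Rank 6 (1768 bases) was at 11.7, 8.33 and 0.51 FPKM at 0 mM, 0.41, 14.2 and 2.84 FPKM at 100 mM, and 22.1, 28.8 and 21.4 FPKM at 400 mM. In both, replicate 3 at 0 mM and replicate 1 at 100 mM lay far below the highest library of their own level, whereas all 400 mM libraries were high. Rank 3 had 41 counts in its lowest 0 mM library and 393 in its highest. Deviations of log2 FPKM from the level means correlated at 0.980 between ranks 3 and 6 over the 9 libraries, a description of 9 values that share their library depths. Whether they are copies or fragments of 1 gene was not tested.

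Cluster-23439.56392 was the raised cluster with the highest mean FPKM and also the shortest, at 224 bases. It was at 294, 333 and 118 FPKM at 0 mM, 247, 336 and 273 FPKM at 100 mM, and 592, 462 and 375 FPKM at 400 mM. The lowest 400 mM library was 1.12 times the highest of the others, and the high FPKM came from few reads: 47, 52 and 23 counts at 0 mM, 49, 52 and 45 at 100 mM, and 137, 88 and 77 at 400 mM. Its FPKM was high for its count: 47 counts stood beside 294 FPKM in replicate 1 at 0 mM, where the 1135-base cluster of rank 53 had 2036 counts and 138 FPKM.

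Among the 9 raised clusters with a mean of at least 1000 counts per library, the cluster of rank 53 (1135 bases) had the widest gap. It stood at 138, 161 and 125 FPKM at 0 mM, 134, 136 and 186 FPKM at 100 mM, and 315, 303 and 301 FPKM at 400 mM. Its means were 141 ± 18.6, 152 ± 29.2 and 306 ± 7.59 FPKM (SD, n = 3 each), and its ratio by summed counts was 2.16 (exact 95% interval 2.10 to 2.22). Rank 88 (556 bases), second only to the shortest cluster in FPKM, was at 121, 224 and 169 FPKM at 0 mM, 140, 207 and 221 FPKM at 100 mM and 270, 330 and 355 FPKM at 400 mM. In rank 16 (1610 bases) a single library stood out, with 307 FPKM in replicate 1 at 400 mM, beside 106 and 138 FPKM in replicates 2 and 3 and 31.0 to 77.1 FPKM in the 6 others. Rank 47 (3286 bases) had the most counts, from 3397 in replicate 1 at 0 mM to 19459 in replicate 2 at 400 mM. The longest raised cluster (5858 bases, rank 63) was scarce, at 0.90 to 1.82 FPKM in the 6 libraries at 0 and 100 mM and at 2.37, 1.97 and 3.05 FPKM at 400 mM.

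**Figure D3:**
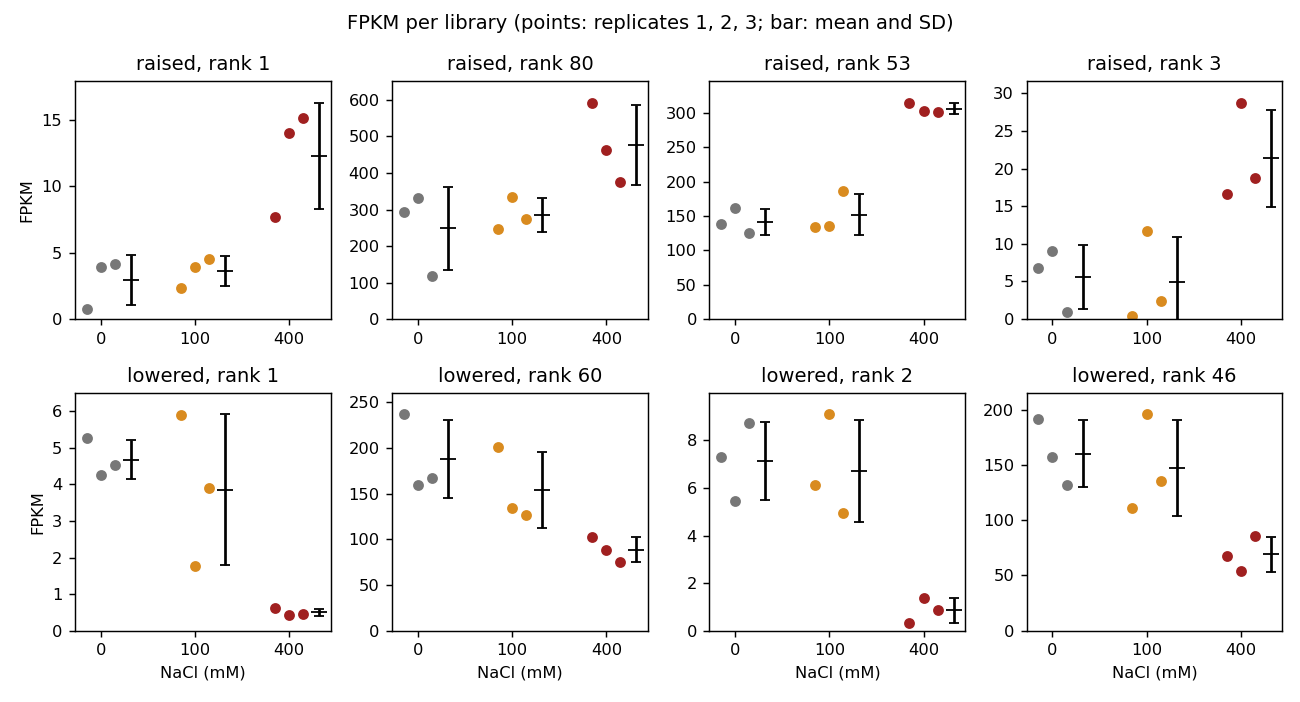
FPKM in each library (points, replicates 1 to 3 from left to right; bars, mean and SD of 3) at 0, 100 and 400 mM NaCl for 4 raised and 4 lowered clusters, each panel with its own axis from 0. Rank 53 raised shows 3 nearly equal 400 mM values near 306 FPKM, rank 3 raised shows libraries at 0 and 100 mM that spread from 0.46 to 11.7 FPKM, and ranks 1 and 2 lowered lie under 1.5 FPKM in every 400 mM library.

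Cluster-23439.35331, 1114 bases long, had the largest ratio among the lowered clusters. It was at 5.26, 4.25 and 4.54 FPKM at 0 mM, 5.89, 1.76 and 3.91 FPKM at 100 mM, and 0.62, 0.43 and 0.46 FPKM at 400 mM. All 400 mM libraries were close to the lowest values that the table admits, and the lowest of the 6 others was 2.84 times the highest of them. Its log2 ratio was -3.22, from 30 counts summed over 400 mM and 221 over 0 mM, which puts the 0 mM level at 9.22 times that at 400 mM by counts per depth (exact 95% interval 6.28 to 14.0).

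The lowered clusters of ranks 2 and 3 were similar in size of change, and together with rank 1 were the only lowered clusters whose 6 other libraries all exceeded the 400 mM libraries by at least 2-fold. Rank 2 (1542 bases) was at 7.28, 5.43 and 8.71 FPKM at 0 mM, 6.11, 9.09 and 4.96 FPKM at 100 mM, and 0.34, 1.38 and 0.87 FPKM at 400 mM. Rank 3 (699 bases) was at 8.70, 8.63 and 4.60 FPKM at 0 mM, 10.5, 4.97 and 5.75 FPKM at 100 mM, and 0.68, 1.87 and 0.56 FPKM at 400 mM. By counts per depth their 0 mM levels were 8.32 times (exact 95% interval 6.53 to 10.7) and 7.23 times (exact 95% interval 4.92 to 10.96) those at 400 mM. No raised cluster had a gap of at least 2-fold.

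From rank 4 on, the lowered clusters came closer to the other libraries. Rank 4 (1310 bases) was at 9.81, 4.40 and 2.58 FPKM at 0 mM, 3.83, 6.47 and 3.86 FPKM at 100 mM, and 0.59, 1.51 and 1.82 FPKM at 400 mM. Rank 5 (1399 bases) was at 5.33, 4.20 and 10.9 FPKM at 0 mM, 16.1, 2.81 and 4.74 FPKM at 100 mM, and 0.84, 2.57 and 2.15 FPKM at 400 mM. In rank 5 the levels at 100 mM differed more between replicates than their mean differed from 400 mM, and replicate 2 at 100 mM was only 1.09 times the highest 400 mM library.

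Cluster-23439.48484, 347 bases long, was the lowered cluster with the highest mean FPKM. It was at 237, 160 and 167 FPKM at 0 mM, 201, 134 and 127 FPKM at 100 mM, and 103, 88.3 and 75.6 FPKM at 400 mM, from 179 to 462 counts per library. The level at 100 mM lay between the other means, at a log2 ratio to 0 mM of -0.29, near the limit of the choice. Rank 46 (1380 bases), next in FPKM, was at 192, 157 and 131 FPKM at 0 mM, 111, 196 and 135 FPKM at 100 mM and 67.5, 53.9 and 85.9 FPKM at 400 mM. With 1330 to 4367 counts per library it had a ratio of 0 mM to 400 mM of 2.28 by counts per depth (exact 95% interval 2.21 to 2.36). Rank 82 (1739 bases) had nearly equal means at 0 and 100 mM, at 105 ± 33.8 and 105 ± 19.0 FPKM, and 52.4 ± 10.0 FPKM at 400 mM (SD, n = 3 each). Rank 65 (904 bases) was the tightest of the well-counted lowered clusters at 400 mM, at 53.2, 53.6 and 55.5 FPKM, beside 75.8 to 140 FPKM in the 6 others. The longest lowered cluster (7548 bases, rank 75) was at 4.34, 2.67 and 2.90 FPKM at 0 mM, 2.76, 3.12 and 2.76 FPKM at 100 mM and 1.86, 1.81 and 1.25 FPKM at 400 mM, whereas the shortest (223 bases, rank 57) rested on only 3 to 17 counts per library.

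As a sum, the 100 raised clusters held 1257, 1813 and 1341 CPM (counts scaled to 1e6 per library) at 0 mM. They held 1377, 1526 and 1735 CPM at 100 mM, and 3346, 3152 and 3104 CPM at 400 mM. The sums of the 100 lowered clusters were 1343, 926 and 1018 CPM at 0 mM, 1063, 1146 and 884 CPM at 100 mM, and 514, 426 and 525 CPM at 400 mM. Neither set was evenly filled, as the 10 clusters with the most counts made up 75.04% of the counts of the raised set and 60.6% of those of the lowered set. In FPKM the 10 most abundant made up 72.9% and 61.0%, and the 224-base raised cluster, with 15.1% of the summed FPKM, held 0.145% of the counts.

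The selected clusters were scarcer than those that met the conditions but ranked after 100, whose median of the mean FPKM was 15.4 raised and 29.7 lowered. The median of the mean FPKM was 4.59 for raised and 3.53 for lowered clusters, beside 6.11 for all clusters of the table. Between 1 and 10 FPKM lay 71 clusters of each set, beside 56.8% of the table. At least 1 library with under 10 counts was found in 19 raised and 29 lowered clusters, beside 15.04% of the table and 9.53% of the clusters inside the cap and the 100 mM limit. Among the clusters that met the conditions but ranked after 100, the same held for only 0.275% of 363 raised and 0.562% of 356 lowered. The first 25 raised clusters had a median of 52.0 counts per library and those of ranks 76 to 100 had 136. Only 9 raised and 4 lowered clusters averaged at least 1000 counts, with median log2 ratios of 1.11 and -1.14. Selected and later-ranked clusters were divided by the size of the ratio in these same libraries, so the differences between them describe the selection only.

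**Figure D4:**
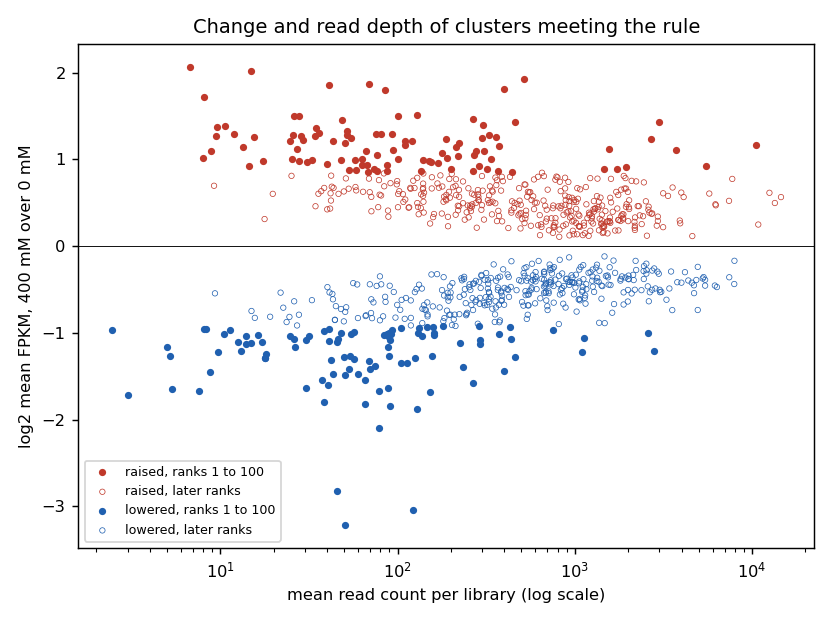
Log2 ratio of mean FPKM at 400 mM over 0 mM (vertical) against mean read count per library (horizontal, log scale) for all clusters that met the conditions, with the 100 of largest ratio in each direction filled and later ranks open. Filled points lie mostly under 1000 counts, while many open points lie around and above it with log2 ratios nearer to 0.

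Whether the clusters stayed level at 100 mM depended on how libraries were scaled. In FPKM, the median log2 ratio of 100 mM to 0 mM was 0.07 for raised and -0.06 for lowered clusters, and it was positive in 66 raised and 38 lowered clusters. The whole table was shifted, with medians of -0.21 at 100 mM and -0.14 at 400 mM, so that clusters level in FPKM stood above the median cluster at 100 mM. Relative to those medians, raised clusters were at 0.28 at 100 mM and 1.28 at 400 mM, and lowered clusters at 0.15 and -1.001. With TMM-scaled counts the table medians were 0.04 at both salt levels. On that scale 46 of 96 raised clusters with enough counts lay within 0.3 of 0 at 100 mM and 50 lay above, with a median of 0.31. For the lowered clusters the sign of the 100 mM median turned to 0.18, with 70 of 95 inside the limit, 25 above and 0 below. At 400 mM the medians on this scale were 1.32 and -0.93. Complete separation of the 400 mM libraries was found in 83 of 96 raised and 76 of 95 lowered clusters, where 2.63% of all clusters had it upward and 2.35% downward. The members were chosen for this separation in FPKM, so nothing is read from these counts.

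Within levels, the raised clusters varied more at 0 mM than at 400 mM. At 0, 100 and 400 mM the median coefficient of variation of the raised clusters was 30.0%, 25.2% and 22.5%, and that of the lowered clusters 27.7%, 26.4% and 27.6%. Over all clusters inside the cap and the 100 mM limit it was 19.6%, 19.6% and 20.5%, and among the raised clusters ranked after 100 it was 12.6%, 11.8% and 8.91%. Among the 6 libraries at 0 and 100 mM, the highest was at least 2 times the lowest in 62 raised and 57 lowered clusters. It was at least 10 times the lowest in 3 raised clusters and 0 lowered ones. Of the 10971 clusters inside the cap and the 100 mM limit, 4287 reached 2 times and 137 reached 10 times. The condition of complete separation shapes these spreads, so they describe the selected clusters only.

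Particular libraries leaned the same way in many of the clusters, as they mostly did in those that met the conditions but ranked after 100. At 0 mM, replicate 2 was the highest library in 64 of 100 raised clusters and in 22 of 100 lowered ones, beside 35.0% of all clusters in the table. Replicate 1 at 0 mM was the highest in 17 raised and 48 lowered clusters, beside 38.8% of the table. Among clusters ranked after 100, replicate 2 at 0 mM was the highest in 59.2% of raised and 17.1% of lowered ones. For replicate 1 at 0 mM these shares were 25.3% and 60.7%, so the leaning is not particular to the selected clusters. At 100 mM, replicate 1 was the highest in 25 raised and 48 lowered clusters (43.9% of the table), and replicate 3 in 31 and 15 (23.7%). Replicate 1 at 400 mM was the lowest of its level in 45 raised clusters, beside 32.5% of the table, and the highest in 44 lowered clusters, beside 39.4%. In lowered clusters the counts for replicate 1 at 100 and 400 mM (48 and 44) were thus near the shares of the table. Among raised clusters, replicate 1 was the library most often lowest at each level (55, 46 and 45 clusters at 0, 100 and 400 mM). In the table these shares were 31.6%, 30.1% and 32.5%. Replicate 2 was the one most often highest (64, 44 and 48), beside 35.0%, 32.4% and 36.7% of the table. In raised clusters ranked after 100, replicate 3 was most often lowest at 0 mM (55.4%), and replicate 1 at 100 and 400 mM (54.8% and 43.5%).

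Pairs of clusters within a set varied together in some cases and oppositely in others. Deviations of log2 FPKM from the level means had a median correlation over pairs of 0.11 for raised and 0.06 for lowered clusters, each over 9 libraries whose deviations share library depth, and 40.7% and 45.2% of pairs were below 0. Correlations of at least 0.95 were found in 8 of 4950 raised pairs (0.162%) and 1 of 4950 lowered pairs (0.0202%), beside 0.0868% of all pairs in the table. Over all clusters that met the conditions the shares were higher, at 0.209% of raised and 0.178% of lowered pairs. The closest raised pair was that of ranks 32 and 74, with a correlation of 0.994. For the lowered set it was that of ranks 37 and 73, at 0.981.

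Length, which was no criterion of the choice but entered the FPKM it used, differed little between the sets at their medians. Raised clusters had a median of 1247 bases (quartiles 612 and 2306) and lowered clusters 1150 bases (quartiles 712 and 1769), beside 1476 bases in the whole table. Lengths of 2000 bases or more were held by 30 raised and 15 lowered clusters, beside 31.7% of the table and 35.3% of the clusters inside the cap and the 100 mM limit. The raised share was thus near that of the table and the lowered share below it. Over all clusters that met the conditions the lengths were further apart, with a median of 2111 bases for 463 raised and 1159 for 456 lowered, and with 53.1% and 16.9% at 2000 bases or more. Seen by class, 6.35% of the 3874 clusters of 2000 bases or more inside the cap and the 100 mM limit met the raised conditions and 1.99% the lowered ones, whereas from 500 to under 1000 bases it was 3.31% and 6.92%. The whole table moved with length too: the median log2 ratio of 400 mM to 0 mM was -0.01 at 2000 bases or more, -0.19 from 1000 to under 2000, -0.26 from 500 to under 1000 and -0.17 under 500. The part of this shift in the unequal lengths was not tested. Clusters are not independent replicates, and no test is given.

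**Figure D5:**
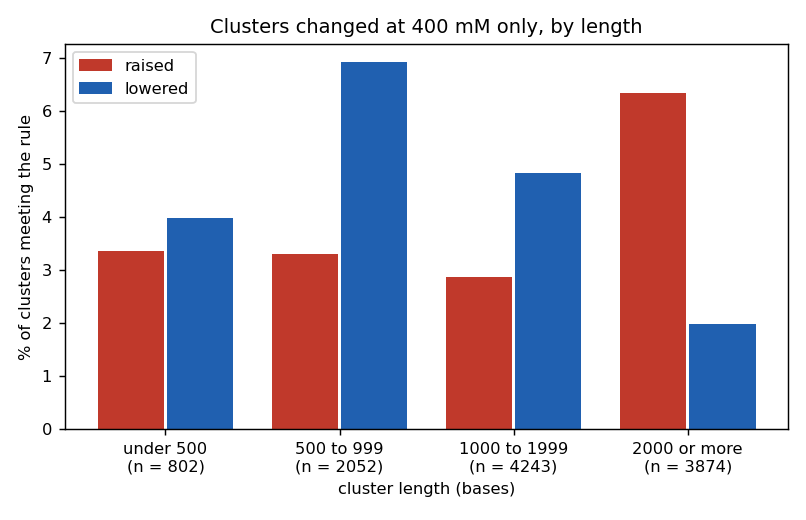
Share of clusters inside the FPKM cap and the 100 mM limit that met the raised (red) or lowered (blue) conditions at 400 mM, by cluster length in bases, with the number of clusters per class under each pair of bars. The raised share is highest at 2000 bases or more (6.35%) and the lowered share from 500 to under 1000 bases (6.92%).

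All 200 clusters shared the part of the name before the point, as did 99.3% of the clusters in the table, so this part of the name does not set them apart. Read counts that were not whole occurred in at least 1 library in 82 raised and 72 lowered clusters, beside 79.1% of the table. How these counts arose was not tested, and whether a cluster shares reads with near-identical ones is not known, so single clusters are uncertain as genes.

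In the count test over all clusters (edgeR's quasi-likelihood test, Benjamini-Hochberg adjusted p under 0.05), 0 of the 191 selected clusters tested were called at 400 mM against 0 mM, where 0.00% of all 56832 clusters were called. Only 30560 of these 56832 were among the 31628 open to the choice, so the edgeR and DESeq2 shares include clusters that could not be selected. At an unadjusted p under 0.05, the same edgeR test gave 80 of 96 raised clusters (8.13% of all clusters were higher) and 50 of 95 lowered clusters (4.90% of all were lower). DESeq2 called 57 raised and 21 lowered clusters, where 2936 of the 75448 clusters it tested were called higher and 1609 lower (6.02% in all). The calls of limma on log2(FPKM + 1) were 1 raised and 2 lowered, where 65 of 31628 were called higher and 34 lower (0.313% in all). For 400 mM against 100 mM, edgeR again called 0 of the 191, with 0.00% of all clusters called, and 53 raised and 70 lowered clusters had an unadjusted p under 0.05 (3.63% and 3.39% of all). DESeq2 called 12 raised and 29 lowered clusters there, where 653 of the 68396 it tested were called higher and 689 lower (1.96% in all). The calls of limma on log2(FPKM + 1) there were 0 (0.00% of 31628). At 100 mM against 0 mM edgeR called 0 of the selected clusters, where 0.50% of all 56832 were called. DESeq2 called 0 there (8.07% of 75448) and limma 0 (5.87% of 31628). An unadjusted edgeR p under 0.05 was found there for 2 raised clusters (8.90% of all clusters were higher) and 0 lowered clusters (6.53% of all were lower). The choice ranked and separated clusters on the same libraries and contrasts, so the p-values of selected clusters follow from it, and nothing is read from these counts.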

How the data were processed

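The 9 library tables hold, per the file headers, a read count and an FPKM for each of 126059 clusters. Deposited counts were treated as estimated counts and rounded, since 38.5% to 42.5% per library are not whole numbers. A deposited series table gives the authors' FPKM and cluster lengths for 31628 clusters, exactly those over 0.3 FPKM in all 9 libraries, which keeps clusters absent in any library out of the choice. The submitters' processing notes list TopHat2 2.0.9 and Bowtie2 2.0.6 without their roles. The assembler, counter and strand setting were not given in the sources used here. Transcripts were assembled without a genome, per the series title.

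The selection was computed with pandas 2.3.3. Members and comparisons were chosen with earlier results of these data known. Clusters were named by rule: in each direction the largest ratio and the highest mean FPKM, with ranks 2 to 5, the next 2 by FPKM, the longest, the shortest and rank 100 described without a name. Raised ranks 6, 16 and 47 and lowered rank 65 were chosen after their values were seen. Count tests used edgeR 4.0.16 in R 4.3.3 (quasi-likelihood, TMM, default filterByExpr leaving 56832 clusters, 6 residual degrees of freedom, 3 levels in 1 fit). DESeq2 1.42.0, limma 3.58.1, other scalings and filters and leaving out each library were alternatives. The selection and the edgeR fit were tested on simulated data. The planted changes were larger than most of those of the selected clusters, and the simulated spread between libraries was smaller than in these data. These tests therefore do not show how well changes of the size described here would be found. Exact 95% intervals of count ratios came from the binomial distribution (scipy 1.17.1) and cover counting error only. They use total counts as depth, leave out the spread between libraries and the scaling, and do not correct for the choice of clusters by this ratio.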

Additional observations from a re-analysis of the deposited data

How the results depend on the processing

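Of the 100 raised and the 100 lowered clusters, a repeat of the selection took 42 and 35 again with TMM-scaled CPM, 64 and 62 with a limit of 0.2 at 100 mM, and 68 and 57 with a limit of 0.5. Over all clusters in the library tables it took 17 and 17, as clusters with a 0 in some library then filled 74 and 61 of the places. Adding 1 FPKM to the means took 73 and 69, a mean of at least 1 FPKM 94 and 91, ranking against the 6 other libraries 89 and 94, and no cap 100 and 99. Leaving out 1 library took 45 to 68 raised and 34 to 67 lowered clusters. For 0 mM replicates 1, 2 and 3 it was 54, 45 and 62 raised and 58, 59 and 52 lowered. For 100 mM the values were 68, 57 and 64 raised and 67, 40 and 38 lowered, and for 400 mM 48, 56 and 61 raised and 40, 34 and 53 lowered. Without replicate 1 of both salt levels, chosen after seeing the data, 33 and 32 were taken. Whether a given cluster is selected thus depends on these settings.

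Calls by edgeR over all clusters were 0 at 400 mM against 0 mM, 0 at 400 mM against 100 mM and 284 at 100 mM against 0 mM. DESeq2 gave 4545, 1342 and 6087, limma with 1 added to FPKM 99, 0 and 1858, and with 0.1 added instead 72, 0 and 1639. Of the selected clusters, DESeq2 called 78 at 400 mM against 0 mM (6.02% of all it tested) and 41 against 100 mM (1.96%). Both limma settings called 3 at 400 mM against 0 mM, beside 99 and 72 of all 31628 clusters, and 0 against 100 mM, beside 0 of all. These counts follow from the choice, and nothing is read from them. Library size as the only scaling gave 138 calls at 100 mM against 0 mM. The replicate number as a block gave 83, 0 and 601 calls and 0 of the selected clusters. The numbers were not taken to pair the samples, as not every same-numbered pair had a correlation of deviations over 0.1. Same-numbered pairs averaged 0.0842 and other pairs -0.0418 at 400 and 0 mM, 0.176 and -0.0864 at 400 and 100 mM, and 0.0474 and -0.0234 at 100 and 0 mM. Deviations from a level mean sum to 0, so the average of other pairs largely follows from that of same-numbered pairs. The same-numbered correlations were all positive, the lowest at 0.00591. Every library correlated best with its own number at 400 and 0 mM, but not in the other comparisons. Leaving out 1 library gave 0 to 120 calls at 400 mM against 0 mM (120 without 400 mM replicate 1, 1 without 100 mM replicate 2), 0 at 400 mM against 100 mM, and 0 to 649 at 100 mM against 0 mM. Of these, 649 came without 400 mM replicate 1 and 172 without 400 mM replicate 3, and each of the other 7 libraries left 0 to 7 calls. The fits without 1 library called 0 of the selected clusters. The cause of these differences was not tested.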
